A study of Sus scrofa with 9 samples.

Results

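The SOX genes encode transcription factors, and 10 of them were followed through 3 stages of molar development: SOX2, SOX4, SOX5, SOX6, SOX9, SOX10, SOX11, SOX17, SOX18 and SOX21. They were chosen by symbol. Of the 34580 rows of the expression table, 8 carried a listed symbol, and a row spelled SOX-6 was taken as SOX6 by its spelling, so that 9 genes were analysed. SOX18 was not analysed here. Of the 9, all but SOX10 passed the filter on low values, so that 8 were tested.

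SOX proteins bind DNA through an HMG box related to that of SRY, and the family is divided into lettered groups by the similarity of that box. SOX2 (group B1) is known for holding progenitor cells, including those of the dental epithelium, in an undifferentiated state. SOX4 and SOX11 (group C) are broadly expressed in embryonic progenitors, and SOX9 (group E) works with SOX5 and SOX6 (group D) in cartilage. SOX10 marks neural crest, glia and pigment cells, SOX17 and SOX18 (group F) act in endothelium, and SOX21 (group B2) is known from hair and enamel epithelium.

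The tissue was the germ of the third deciduous molar (Dm3) of the lower jaw of miniature pigs, at embryonic day 40 in the cap stage (E40), day 50 in the early bell stage (E50) and day 60 in the late bell stage (E60). Each stage had 3 libraries, and by their labels the groups differed in age alone, with no treatment or change of genotype. The germs are whole organs, so that a lower level from fewer cells of a type and one from less RNA per cell cannot be told apart. The sources do not say whether the 3 libraries of a stage came from separate fetuses or litters, and p-values therefore measure only the spread between these libraries. The libraries were of very unequal depth. From the steps of the FPKM values, 938527 to 1323530 reads were recovered for the E40 libraries and 14362235 to 16674750 for the E50 libraries. E60 library 1 held 16124836 reads, but E60 libraries 2 and 3 held 1380822 and 1760356. Across all tested genes, Pearson's r of log2(FPKM + 0.1) lay between 0.743 and 0.983 among libraries of like depth (16 pairs) and between 0.301 and 0.609 otherwise (20 pairs). The transcript LOC102158401 took 22.3% to 40.6% of the reads in each of the 5 shallow libraries and at most 0.576% in each of the 4 deep ones. Stage and depth cannot be told apart between E40, where every library is shallow, and E50, where every library is deep. E60 has libraries in both sets, and the differences that involve E60 are therefore also given without E60 library 1 or within the sets. Leaving out E60 library 1 makes E40 and E60 alike in depth. It also sets only shallow E60 libraries against the deep E50 libraries. Stage and depth then cannot be told apart from E50 to E60 either, and calls at that step without E60 library 1 carry this limit.

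The tissue carried the markers of a tooth germ. Of 12 dental epithelium genes listed, 11 were present, led by the keratins KRT5, KRT14 and KRT15, with a summed level of 4001 to 5717 FPKM at E40, 2615 to 3639 at E50 and 1393 to 4117 at E60. The epithelial cadherin CDH1 was listed at 0 in all 9 libraries. Of 12 dental mesenchyme genes, 10 were present, led by VIM, LHX8 and PDGFRA, with sums of 1106 to 1674, 3013 to 3416 and 705 to 2462 FPKM, and DLX5 was listed at 0 throughout. The 5 ameloblast genes present, led by AMBN, AMEL and ENAM, summed to at most 23.9 FPKM in any E40 or E50 library and to 18298, 3387 and 8385 FPKM in E60 libraries 1, 2 and 3. The 7 odontoblast genes, led by COL1A1, DSPP and SPP1, summed to 138 to 233, 196 to 279 and 433 to 1322 FPKM.

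**Figure D1:**
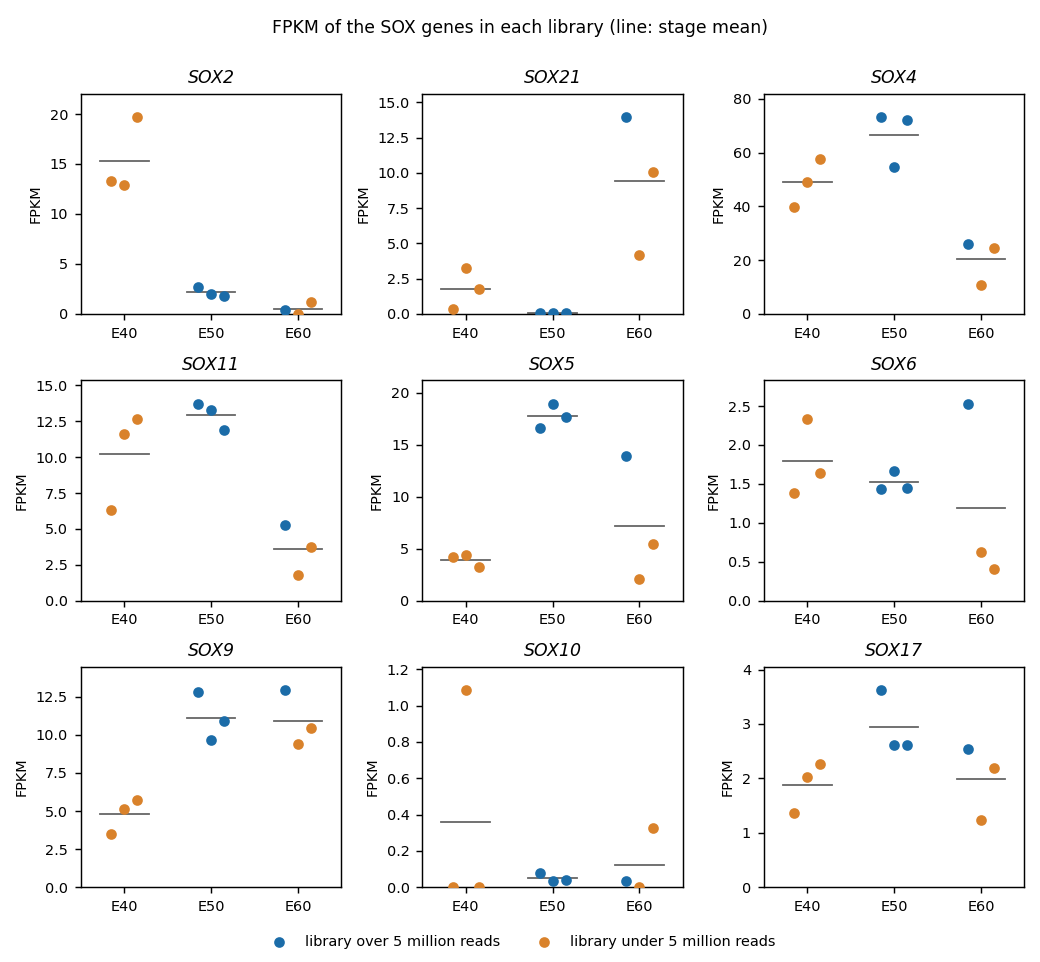
FPKM (y axis, from 0, scaled per gene) of 9 SOX genes in each library at E40, E50 and E60 (x axis); points are single libraries coloured by depth and lines are stage means of 3 libraries. SOX2 was highest at E40, SOX21 at E60, and SOX4 and SOX11 lowest at E60, while SOX10 stayed at 2 reads or fewer in every library.

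SOX2 was highest at the cap stage. Its level was 13.3, 12.9 and 19.7 FPKM in E40 libraries 1, 2 and 3, then 2.70, 1.997 and 1.81 FPKM at E50, then 0.387, 0 and 1.18 FPKM at E60. Every E40 library lay above every E50 library, and every E50 library above every E60 library. The values rest on 12, 13 and 25 reads at E40, 38, 32 and 25 at E50, and 6, 0 and 2 at E60. In E60 library 2, the count of 0 allows up to 2.26 FPKM (3 reads, counting error only). E60 library 3, with 2 reads, was under the floor of 3 reads, there worth 1.77 FPKM and close to the lowest E50 value. Neither of these libraries by itself could be told from E50. The mean was 15.3 ± 3.80 FPKM (SD, n = 3) at E40, 2.17 ± 0.468 at E50 and 0.523 ± 0.603 at E60.

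Stage differences were estimated with limma from log2(FPKM + 0.1) in all 9 libraries. A gene was called changed where its Benjamini-Hochberg adjusted p was under 0.05 and its log2 fold change reached 1 or -1. By these limits SOX2 fell from E40 to E50 (log2 fold change -2.75, SE 0.837, adjusted p = 0.0316) and from E40 to E60 (log2 fold change -5.25, SE 0.837, adjusted p = 0.0171). The second value rests on 8 reads at E60 and depends on the pseudocount (-3.47 with a pseudocount of 1, adjusted p = 0.00121). From E50 to E60 the log2 fold change was -2.50 (adjusted p = 0.164), which did not pass, and -2.64 without E60 library 1 (adjusted p = 0.0307), which did. With median-ratio scaling of those 8 libraries it was -2.06 (adjusted p = 0.111) and no longer passed. Leaving out any single E40 or E50 library ended both calls, with log2 fold changes between -2.91 and -2.56 for E40 to E50 (highest adjusted p = 0.0997) and between -5.36 and -5.05 for E40 to E60 (highest adjusted p = 0.0685).

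SOX21 was highest at the late bell stage. Its level was 0.363, 3.24 and 1.80 FPKM at E40, 0.0930, 0.102 and 0.0474 FPKM at E50, and 13.9, 4.19 and 10.1 FPKM at E60. Every E60 library exceeded every library of the earlier stages, and every E50 library was below every E40 library. The reads behind these values were 1, 10 and 7 at E40, 4, 5 and 2 at E50, and 660, 17 and 52 at E60, so that both earlier stages were near the floor of 3 reads per library. Counting error alone could cover the order of E60 library 2 and E40 library 2. The same holds for E40 library 1 and the E50 libraries. From E50 to E60 the log2 fold change was 5.57 (SE 0.819, adjusted p = 0.0642), the smallest adjusted p of the 8 genes in that comparison but above the limit. It passed without E60 library 1 (log2 fold change 5.20, adjusted p = 0.00101) and without E40 library 1 (adjusted p = 0.0445), when the FPKM were rescaled by median ratios (log2 fold change 6.05, adjusted p = 0.0142) and with limma-voom on the recovered reads (log2 fold change 6.60, adjusted p = 0.0116). It did not pass on leaving out any of the other 7 libraries (highest adjusted p = 0.346), in a fit of the 2 stages alone (adjusted p = 0.168) or with a pseudocount of 1 (adjusted p = 0.0656).

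SOX21 fell from E40 to E50 (log2 fold change -3.00, SE 0.819, adjusted p = 0.0228), a call that leaving out any single E40 or E50 library ended (highest adjusted p = 0.0789) and that a pseudocount of 1 ended too (log2 fold change -1.23, adjusted p = 0.0705). Between E40 and E60 the log2 fold change was 2.57 (adjusted p = 0.177). In reads, SOX21 had 660 of 16124836 in E60 library 1 and 11 of 45689157 in the E50 libraries together, a share 170-fold higher (95% exact interval 94.4 to 342, counting error only). In the shallow libraries the shares were 69 of 3141178 at E60 and 18 of 3313523 at E40, 4.04-fold higher (2.38 to 7.22). Of the 5 ameloblast genes, whose sum is given above, AMBN, AMEL and ENAM were also high in the E60 libraries. AMTN was lower at E60 (0.819 to 4.83 FPKM) than at E50 (10.5 to 15.6 FPKM). ODAM overlapped between these stages (0.472 to 2.06 FPKM at E60 and 0.797 to 1.45 at E50). From E50 to E60, 3 of 5 tested were called higher and none lower, against 0.0714% of all genes. Without E60 library 1 this was 3 higher and 1 lower, against 59.1%. The part of that cell type in the SOX21 values was not tested.

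The ratio of SOX21 to SOX2 within a library does not depend on how libraries are scaled to each other. It was 0.0273, 0.252 and 0.0916 at E40 and 0.0344, 0.0511 and 0.0262 at E50, and it was 36.0 in E60 library 1 and 8.51 in E60 library 3. In E60 library 2, with 17 SOX21 reads and no SOX2 read, the exact interval begins at 1.35. SOX2 thus had the higher FPKM of the pair in all 6 libraries of E40 and E50, and SOX21 in all 3 of E60.

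Among the dental epithelium genes, 1 of 10 tested was called higher and 1 lower from E40 to E50, none from E50 to E60, and 1 lower from E40 to E60, where 38.6%, 0.0714% and 1.8% of all tested genes were called. When E60 library 1 was left out, the counts were 3 higher and 1 lower from E40 to E50, 5 lower from E50 to E60, and 1 higher and 1 lower from E40 to E60, against 54.6%, 59.1% and 6.06% of all genes. KRT15, a keratin of basal epithelial cells, was 552, 611 and 750 FPKM at E40, 85.4, 64.7 and 91.2 at E50 and 27.5, 8.76 and 37.6 at E60, and so stood in the same stage order as SOX2. KRT5 (1712 to 2386 FPKM at E50 and 858 to 2635 at E60) overlapped between those stages.

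SOX4 was the most abundant SOX gene in every library. It stood at 40.0, 49.2 and 57.7 FPKM at E40, 73.1, 54.8 and 72.0 at E50, and 25.9, 10.7 and 24.5 at E60. E40 and E50 overlapped, and every E60 library was below all 6 of them. The mean was 49.0 ± 8.89 FPKM (SD, n = 3) at E40, 66.6 ± 10.3 at E50 and 20.4 ± 8.38 at E60, a mean 3.27-fold lower at E60 than at E50 and 2.40-fold lower than at E40. The values rest on 53 reads in the poorest library and 3829 in the richest.

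SOX11, the other listed gene of group C, had the same shape at a lower level. It measured 6.32, 11.6 and 12.7 FPKM at E40, 13.7, 13.3 and 11.9 at E50, and 5.26, 1.77 and 3.77 at E60. Again E40 and E50 overlapped and E60 lay below both. SOX12, the third gene of the group and not among those listed, measured 7.01 to 9.93 FPKM at E40, 8.55 to 10.9 at E50 and 4.24 to 6.06 at E60, with E60 below every other library.

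In the test over all 9 libraries neither SOX4 nor SOX11 was called at any step. For SOX4 the log2 fold changes were 0.45 from E40 to E50 (SE 0.398, adjusted p = 0.368), -1.80 from E50 to E60 (adjusted p = 0.164) and -1.35 from E40 to E60 (adjusted p = 0.148). For SOX11 they were 0.40 (SE 0.478, adjusted p = 0.499), -1.95 (adjusted p = 0.164) and -1.54 (adjusted p = 0.167). Without E60 library 1 both were called lower at E60, SOX4 by a log2 fold change of -2.02 against E50 (adjusted p = 0.00167) and -1.57 against E40 (adjusted p = 0.0430), and SOX11 by -2.28 (adjusted p = 0.00160) and -1.88 (adjusted p = 0.0348). With median-ratio scaling the E40 to E60 differences passed over all 9 libraries (SOX4 -1.23, adjusted p = 0.0127; SOX11 -1.44, adjusted p = 0.0244), and the small E40 to E50 differences turned to -0.21 and -0.26. The E50 to E60 differences shrank to -1.02 for SOX4 (adjusted p = 0.0965) and -1.18 for SOX11 (adjusted p = 0.164). With median-ratio scaling of the 8 libraries they were -0.95 for SOX4 (adjusted p = 0.00440), below the fold limit, and -1.22 for SOX11 (adjusted p = 0.00754).

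The dental mesenchyme genes were called higher in 3 of 9 and lower in none from E40 to E50, against 38.6% of all genes. None was called from E50 to E60, against 0.0714%. Without E60 library 1, 4 of 9 were called higher from E40 to E50. In that fit 8 of 9 were called lower from E50 to E60, and 2 of 9 from E40 to E60. Of all genes, 54.6%, 59.1% and 6.06% were called at these steps. The median log2 fold change from E50 to E60 was -1.79, beside -0.94 for all genes. Their sums, given above, were lowest in E60 library 2, which also had the lowest SOX4 and SOX11. Genes in general were low in that library, which had the lowest median-ratio scaling factor (0.502). Its dental epithelium sum was the lowest as well (1393 FPKM). The part of cell composition in the SOX4 and SOX11 values was not tested.

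SOX5 was the second most abundant SOX gene at E50. It measured 4.17, 4.40 and 3.22 FPKM at E40, 16.6, 18.9 and 17.6 at E50, and 13.9, 2.06 and 5.46 at E60. Every E50 library was above all others, and the E60 libraries were split by depth, with the deep library 1 near E50 and the shallow libraries 2 and 3 near E40. SOX5 rose from E40 to E50 by a log2 fold change of 2.16 (SE 0.609, adjusted p = 0.0253), and the means differed 4.51-fold. Leaving out any single E40 or E50 library ended the call (highest adjusted p = 0.0871), and with the depth set as a covariate the log2 fold change was 0.14 (adjusted p = 0.979). From E50 to E60 the log2 fold change was -1.69 over all 9 libraries (adjusted p = 0.164) and -2.36 without E60 library 1 (adjusted p = 0.00119). With median-ratio scaling these became -0.93 (adjusted p = 0.204) and -1.30 (adjusted p = 0.0105).

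A second row, LOC102162832, which the study's annotation calls SOX-5-like, had a similar profile of 3.88, 0.989 and 4.71 FPKM at E40, 13.5, 16.2 and 13.9 at E50, and 8.96, 1.51 and 2.07 at E60. How reads were shared between the 2 rows is not given in the sources used here, so the SOX5 level is uncertain to that extent.

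SOX6, the partner of SOX5 in group D, was lower and differed little between stages. It measured 1.39, 2.34 and 1.64 FPKM at E40, 1.44, 1.66 and 1.45 at E50, and 2.53, 0.629 and 0.411 at E60. The E60 libraries lay on both sides of all the others, with the deep library highest and the shallow ones, of 6 and 5 reads, lowest. No step was called over all 9 libraries, with log2 fold changes of -0.19, -0.70 and -0.90 (lowest adjusted p = 0.437). Without E60 library 1 the step from E50 to E60 was called at -1.40 (adjusted p = 0.0229), but with median-ratio scaling it was -0.43 over those 8 libraries (adjusted p = 0.537) and -0.0035 over all 9.

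SOX9, which directs the cartilage program and is also expressed in epithelial and mesenchymal progenitors, was higher at both bell stages than at the cap stage. Its level was 3.46, 5.15 and 5.73 FPKM at E40, 12.9, 9.64 and 10.9 at E50, and 12.9, 9.41 and 10.5 at E60. No E40 library reached any later library, and E50 and E60 overlapped. The E40 values rest on 6, 10 and 14 reads. SOX9 rose from E40 to E50 by a log2 fold change of 1.22 (SE 0.358, adjusted p = 0.0281), with means of 4.78 ± 1.18 and 11.1 ± 1.62 FPKM (SD, n = 3). That call was lost with median-ratio scaling (log2 fold change 0.57, adjusted p = 0.138) and on leaving out E40 library 1, E40 library 2 or any E50 library (log2 fold changes of 1.01 to 1.37 over all 9 leave-outs, highest adjusted p = 0.103). From E40 to E60 the log2 fold change was 1.20 (adjusted p = 0.153), which passed when the FPKM were rescaled by median ratios over 9 libraries (1.31, adjusted p = 0.0443) or over the 8 without E60 library 1 (adjusted p = 0.0156), but not in the 8 libraries unscaled (1.07, adjusted p = 0.0716). From E50 to E60 it was -0.03 (adjusted p = 0.953), and 0.74 with median-ratio scaling (adjusted p = 0.202).

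The cartilage list was measured beside SOX9, SOX5 and SOX6, since jaw cartilage lies near the germ. Of 15 genes listed, 11 were present, summing to 37.6 to 41.0 FPKM at E40, 224 to 265 at E50, and 425, 59.1 and 116 in E60 libraries 1, 2 and 3. Most of the later sum was HAPLN1, a hyaluronan link protein, at 1.74 to 6.19 FPKM at E40, 169 to 217 at E50 and 35.7 to 369 at E60. COL2A1 lay between 0.985 and 4.40 FPKM and ACAN between 0.381 and 1.95 FPKM over all 9 libraries. They ranked 5 and 8 of the 11 by mean level and were named after their values were seen. COL9A2 and COL9A1 followed HAPLN1 in mean level (11.1 to 28.1 and 2.98 to 12.9 FPKM). From E40 to E50, 1 of 9 tested cartilage genes was called higher and none lower, against 38.6% of all genes. From E50 to E60 none was called, against 0.0714%. In the 8 libraries other than E60 library 1, 1 of 9 was higher from E40 to E50, against 54.6%. From E50 to E60, 1 was higher and 4 lower in those libraries, against 59.1%.

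SOX10 was not detectable above the floor in any library. It measured 0, 1.08 and 0 FPKM at E40, 0.0777, 0.0342 and 0.0397 at E50, and 0.0353, 0 and 0.324 at E60, which are 2 reads at most. In the shallow libraries the floor of 3 reads was worth between 0.971 and 1.82 FPKM, so that a level of that size could not be seen there. Of 12 Schwann and glia genes, 8 were present, summing to 11.6 to 16.8 FPKM at E40, 27.1 to 32.4 at E50 and 12.8 to 26.5 at E60, and the sum was mostly MPZL1, which is broadly expressed. FABP7 (0.946 to 5.18 FPKM) and EGR2 (0 to 1.96 FPKM) came next, and the myelin gene MBP was listed at 0 in all 9 libraries. Of 5 tested, 1 was called higher from E40 to E50, against 38.6% of all genes. Without E60 library 1 this was 3 higher and 1 lower, with 2 lower from E50 to E60, against 54.6% and 59.1%. The 6 melanocyte genes, led by KIT, DCT and TYR, summed to 20.9 to 22.1, 18.8 to 21.2 and 6.25 to 18.3 FPKM.

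SOX17, the endothelial and endodermal member, was low at all stages. It measured 1.37, 2.03 and 2.26 FPKM at E40, 3.61, 2.61 and 2.62 at E50, and 2.54, 1.24 and 2.18 at E60. The E50 libraries were the highest of the 9, though their lowest value was close to that of E60 library 1, and E40 and E60 overlapped. The log2 fold changes were 0.63 (SE 0.496, adjusted p = 0.311), -0.59 (adjusted p = 0.371) and 0.04 (adjusted p = 0.976), and none passed with or without E60 library 1. Of 14 endothelial genes, 11 were present, led by PECAM1, CLDN5 and EGFL7, and they summed to 44.2 to 68.0 FPKM at E40, 98.0 to 115 at E50 and 39.4 to 117 at E60. They were called higher in 3 of 11 and lower in none from E40 to E50, against 38.6% of all genes. None was called from E50 to E60, against 0.0714%. These counts became 5 of 11 higher from E40 to E50 and 2 lower from E50 to E60 without E60 library 1, against 54.6% and 59.1%. The endothelial sum and SOX17 both had their lowest E60 value in library 2, where genes in general were low (median-ratio scaling factor 0.502). The part of endothelium in the SOX17 values was not tested.

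Counted over the 8 tested SOX genes, 2 rose (SOX5 and SOX9) and 2 fell (SOX2 and SOX21) from E40 to E50, 4 of 8 against 38.6% of all 19618 genes tested. A limma fit of the E40 and E50 libraries alone called the same 4 (highest adjusted p = 0.0127, for SOX21), and 11108 of all genes. None of the 8 was called from E50 to E60, against 0.0714% of all genes (5 of the 8 and 5923 of all genes had an unadjusted limma p under 0.05, and limma-voom called 1, SOX21), and 1 of the 8 fell from E40 to E60, against 1.8%. Without E60 library 1 the same 4 were called from E40 to E50 against 54.6% of 19493 genes. SOX21 was then called higher and SOX2, SOX4, SOX5, SOX6 and SOX11 lower from E50 to E60, 6 of 8 against 59.1%, and SOX2, SOX4 and SOX11 lower from E40 to E60, 3 of 8 against 6.06%. After rescaling by median ratios over 9 libraries, 3 of 8 were called from E40 to E50 (SOX2, SOX21 and SOX5), 1 from E50 to E60 (SOX21) and 4 from E40 to E60 (SOX2, SOX4, SOX11 and SOX9), against 37.1%, 0.413% and 3.64% of all genes. With that scaling of the 8 libraries the counts were 3 (the same genes), 3 (SOX21, SOX5 and SOX11) and 4 (SOX2, SOX4, SOX11 and SOX9), against 43.7%, 38.2% and 4.86%. In the unscaled fit of 8 libraries, the shares of SOX genes called at the steps to and from E50 were near those of all genes. Both of those steps set shallow against deep libraries. Each pair of the 3 comparisons shares the libraries of 1 stage.

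The median log2 fold change of the 8 was 0.42, -1.20 and -0.43 for E40 to E50, E50 to E60 and E40 to E60, beside 0.55, -0.64 and -0.22 for all genes tested. Median-ratio scaling moved the medians of all genes to -0.09, 0.08 and -0.12 and those of the 8 to -0.23, -0.46 and -0.33. Relative to the median of all genes, the positive E40 to E50 values of SOX4 and SOX11 (0.45 and 0.40) were therefore slightly low rather than high.

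**Figure D2:**
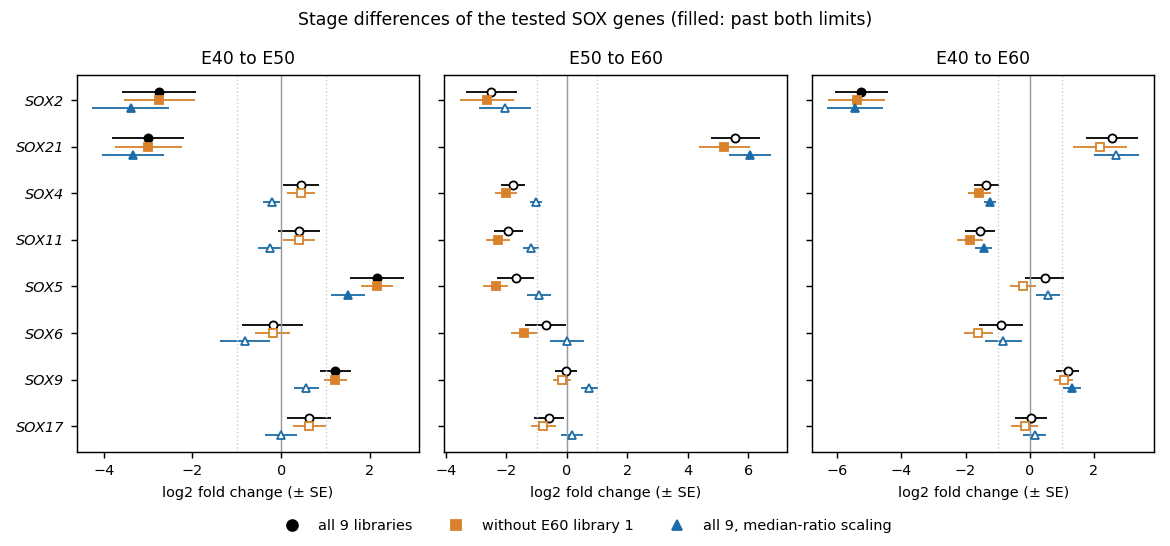
Log2 fold change on the log2(FPKM + 0.1) scale (x axis, bars ± SE) of the 8 tested SOX genes (y axis) at 3 steps, from limma over all 9 libraries (circles), without E60 library 1 (squares) and with median-ratio scaling (triangles); filled symbols passed both limits. SOX2 was below 0 at every step and SOX21 above 0 at both steps that end at E60, while the E40 to E50 values of SOX4 and SOX11 changed sign with the scaling.

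Between E40 and E50 the libraries of SOX2 and SOX21 (lower) and SOX5, SOX9 and SOX17 (higher) did not overlap, 5 of 8 where 73% of all tested genes did not. Between E50 and E60, 6 of 8 did not overlap (SOX2, SOX4, SOX5, SOX11 and SOX17 lower, SOX21 higher), against 26.8%, and between E40 and E60, 5 of 8 (SOX2, SOX4 and SOX11 lower, SOX9 and SOX21 higher), against 22.9%.

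To set E60 against the other stages at like depth, E60 library 1 was compared with the E50 libraries, and E60 libraries 2 and 3 with the E40 libraries. SOX21 was higher in both, by 6.29 and 2.21 on the log2(FPKM + 0.1) scale. SOX9 was higher in both, by 0.22 and 1.07, although E60 library 1 was barely above the highest E50 library. SOX2 (-2.20 and -5.40), SOX4 (-1.35 and -1.57) and SOX11 (-1.28 and -1.88) were lower in both. These 5 of 8 lay beyond every library of the compared stage in the same direction in both sets, as 15.7% of all tested genes did. SOX5 (-0.34 and -0.21) and SOX17 (-0.19 and -0.15) were close to 0 in both sets, and SOX6 went opposite ways (0.70 and -1.60). The medians of all tested genes were -0.07 and -0.46.

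With the depth set as a covariate in the fit, SOX2 (-5.40, adjusted p = 0.0148), SOX11 (-1.88, adjusted p = 0.0357) and SOX4 (-1.57, adjusted p = 0.0440) fell from E40 to E60 in the limma test, and SOX9 did not pass (1.07, adjusted p = 0.0716). These are 3 of 8, against 5.89% of all genes. The E40 to E60 log2 fold changes rest on the 5 shallow libraries alone. They equal those of the fit without E60 library 1 and the within-set differences, and so are 1 comparison, not separate support. For E50 to E60, where a single E60 library enters that comparison and was assumed to vary like the others, none of the 8 passed (SOX21 6.29, adjusted p = 0.117), against 0.107% of all genes, and none passed from E40 to E50, against 0.255%.

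**Figure D3:**
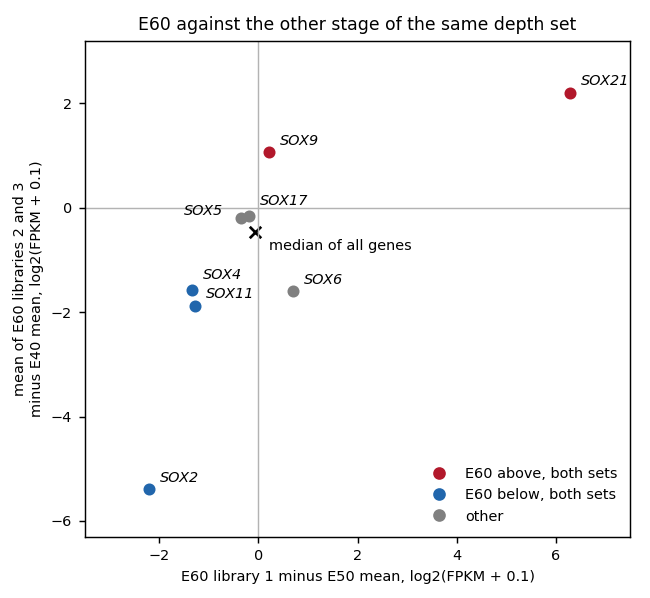
Difference of E60 from the other stage of the same depth set for the 8 tested SOX genes, on the log2(FPKM + 0.1) scale: E60 library 1 minus the E50 mean (x axis) and E60 libraries 2 and 3 minus the E40 mean (y axis), with the median of all tested genes as a cross. Red and blue points lay above or below every library of the compared stage in both sets; SOX21 stands at 6.29 and 2.21, and SOX2, SOX4 and SOX11 lie below 0 on both axes.

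Ratios of 2 genes within a library are free of the scaling between libraries, and they are described here without a test, since 3 libraries against 3 cannot give an exact permutation p below 0.1. SOX11 to SOX4 was 0.158, 0.236 and 0.219 at E40, 0.188, 0.242 and 0.165 at E50, and 0.203, 0.165 and 0.154 at E60. The ratio overlapped at all 3 stages although both genes were lower at E60. In E60 library 2, with 7 SOX11 reads, its 95% exact interval ran from 0.0632 to 0.363.

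SOX9 to SOX4 was lowest in the E40 libraries and highest in the E60 libraries. The ratio was 0.0866, 0.105 and 0.0992 at E40, 0.176, 0.176 and 0.152 at E50, and 0.499, 0.876 and 0.427 at E60, with no overlap at either step. Its exact interval was 0.445 to 0.558 in E60 library 1, above the highest E50 bound of 0.198, and 0.286 to 0.622 in E60 library 3. The E40 values rest on 6, 10 and 14 SOX9 reads, and their intervals reached 0.197 at most. In E40 libraries 1 and 2 the intervals held every E50 value, so that counting error alone could cover that step there. E40 and E50 also differ in depth.

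SOX5 to SOX6 was 3.01, 1.88 and 1.97 at E40, 11.5, 11.4 and 12.2 at E50, and 5.51, 3.28 and 13.3 at E60. The E50 libraries were alike and above E40, and the E60 libraries were spread over the range of both, with 8 and 27 SOX5 reads against 6 and 5 SOX6 reads behind the last 2 values.

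**Figure D4:**
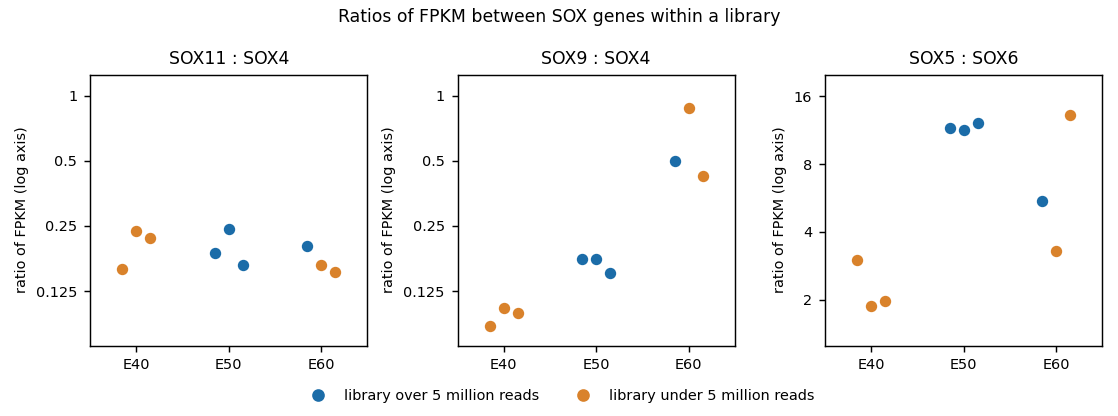
Ratio of the FPKM of 2 SOX genes within each library (y axis, log scale) at E40, E50 and E60 (x axis); each point is 1 library, coloured by depth. SOX11 to SOX4 stayed between 0.154 and 0.242 in all 9 libraries, SOX9 to SOX4 went from at most 0.105 at E40 to at least 0.427 at E60, and SOX5 to SOX6 was highest in the E50 libraries and E60 library 3.

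The order of the mean FPKM changed at each stage. At E40 it was SOX4, SOX2, SOX11, SOX9, SOX5, SOX17, SOX21, SOX6 and SOX10, where SOX9 and SOX5 overlapped, as did SOX17, SOX21 and SOX6 as neighbours. At E50 it was SOX4, SOX5, SOX11, SOX9, SOX17, SOX2, SOX6, SOX21 and SOX10, where SOX11 overlapped SOX9, SOX17 overlapped SOX2, and SOX21 overlapped SOX10. At E60 it was SOX4, SOX9, SOX21, SOX5, SOX11, SOX17, SOX6, SOX2 and SOX10, and all neighbours overlapped. Of the summed FPKM of the 9 genes, SOX4 made up 53.2% to 60.8% in the E40 and E50 libraries and 33.5% to 42.0% in the E60 libraries. SOX2 made up 14.0% to 18.9% at E40 and at most 2.17% later, and SOX21 made up 14.0% to 18.0% at E60.

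Of 9 further SOX genes, 7 had a row and 3 passed the filter. SOX15, a single-member group close to SOX2 in its HMG box, fell from E40 to E50 (2.87, 2.57 and 3.06 FPKM against 0.690, 0.283 and 0.422, log2 fold change -2.44, SE 0.605, adjusted p = 0.0173 from limma). The call rests on 4 to 6 reads in each E40 library, and it was lost without E40 library 1, E50 library 2 or E50 library 3 (highest adjusted p = 0.0719). At E60 SOX15 measured 0.836, 2.44 and 2.30 FPKM, again split by depth, with E60 library 1 close to E50. SOX12 (log2 fold changes 0.14, -0.87 and -0.73) and SOX13, the third gene of group D (0.05, -1.72 and -1.68), were not called at any step over all 9 libraries. Without E60 library 1, SOX13 was called lower (-2.28, adjusted p = 0.0437) and SOX15 higher (2.19, adjusted p = 0.00306) from E50 to E60, and with median-ratio scaling of those 8 libraries only SOX15 was (3.14, adjusted p = 0.000909; SOX13 -1.72, adjusted p = 0.160). SOX14, SOX7 and SOX30 stayed below 1 FPKM in every library, as did SOX3, and SOX7 had no read at E40 and 10 to 16 reads per library at E50. For SOX7, 1 read was worth 0.261 to 0.368 FPKM at E40, and its E50 level was 0.240 to 0.353 FPKM. The lack of a read in a single E40 library thus cannot be told from the E50 level.

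For each SOX gene that reached 10 FPKM, the 3 genes with the most similar profile were found by Pearson's r of log2(FPKM + 0.1) over the 9 libraries, among 7553 tested genes with a mean of at least 5 FPKM. These r describe libraries that share the depth sets above and carry no test. SOX2 was most like MEIS1 (0.991), KRT15 (0.982) and IRX3 (0.979). SOX4 was most like EPHB6 (0.994), LIG1 (0.988) and ETV4 (0.988), and SOX11 like RMI2 (0.994), UHRF1 (0.981) and ETV4 (0.981). LIG1 is a DNA ligase of replication, UHRF1 maintains DNA methylation at replication, and ETV4 is an ETS transcription factor downstream of FGF signaling. SOX5 was most like MRPL3 (0.995), SORBS3 (0.994) and MIPOL1 (0.992), SOX9 like AQP4 (0.981), ST8SIA1 (0.976) and FAM43A (0.969), and SOX21 like CGREF1 (0.940), GPX3 (0.933) and ACPT (0.916). ACPT, an acid phosphatase known from enamel formation, measured 3.40 to 4.81 FPKM at E40, 1.55 to 2.39 at E50 and 31.7, 7.73 and 17.9 at E60. Among the SOX genes themselves, r was 0.97 for SOX4 and SOX11.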

How the data were processed

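The authors depleted ribosomal RNA from Dm3 germs, prepared directional paired-end libraries, aligned the reads with TopHat (genome build Sscrofa10.2 per the submitters' processing notes) and deposited 1 table of FPKM per gene and library. The counter, annotation and strand setting are not given in the sources used here, so reads of a transcript overlapping a SOX gene cannot be told from its own. Stages were taken from the deposited labels. The members, lists and tests were chosen with earlier results of these data known.

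FPKM of a gene rose in steps worth 1 read, and whole reads were recovered for 28963 of 28963 genes above 0 (tolerance 0.02 read). Their totals set the depth, and 3 reads were taken as the floor, for counting error only. Exact (Clopper-Pearson) intervals at 95% cover counting error only. FPKM + 0.1 was tested on the log2 scale, which understates changes of low genes, with limma 3.58.1 (R 4.3.3), a mean-variance trend and a coefficient per stage. The filter kept genes that reached 1 FPKM in 2 or more libraries. The fit was tested on simulated data in which the depth sets differed in depth but not in composition. That test therefore does not cover the difference between the depth sets seen here. Figures were drawn with matplotlib 3.10.9 and tables made with pandas 2.3.3, scipy 1.17.1 and numpy 2.4.6 under Python 3.11.15. Alternatives were a pseudocount of 1, no filter, median-ratio scaling, a replicate block, only the compared stages, the depth set as covariate, limma-voom on recovered reads, each library left out and, chosen after seeing the data, 2 combinations of these.

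Named were all SOX members, the other SOX genes, up to 3 genes per marker list by mean FPKM with those at 0 in every library, and the 3 most similar genes per member reaching 10 FPKM. COL2A1, ACAN, LOC102162832, AMTN, ODAM and the remaining dental epithelium genes were added after their values were seen. The lists for neurons (7 genes present, led by GAP43, SYT1 and STMN2), muscle (5, led by ACTA1, TNNT1 and MYOG) and red cells (5, led by HBB, ALAS2 and HBZ) summed to 7.19 to 18.0, 6.64 to 112 and 94.5 to 1026 FPKM per library. From E40 to E50, 4 of the 5 muscle genes were called lower and 1 of 5 neuron genes higher, with and without E60 library 1. The shares of all genes called were 38.6% with that library and 54.6% without it. From E40 to E60, 3 of 5 muscle genes were called lower, against 1.8%, and 4 of 5 without E60 library 1, against 6.06%. In that last fit 1 neuron gene was higher and 1 lower. The muscle sums were 78.3 to 112 FPKM at E40, 10.7 to 14.5 at E50 and 6.64 to 14.1 at E60. Their part in the SOX values was not tested.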

Additional observations from a re-analysis of the deposited data

How the results depend on the processing

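The counts of genes called moved with almost every choice, in the order E40 to E50, E50 to E60 and E40 to E60. Over all 19618 genes the counts were 7580, 14 and 354, and over the 8 SOX genes 4, 0 and 1. A pseudocount of 1 gave 27 genes for E50 to E60 and 696 for E40 to E60. Median-ratio scaling gave 81 and 714 genes there, with 1 and 4 SOX genes. Fits of only the 2 compared stages gave 11108, 6 and 34 genes, with 4 SOX genes for E40 to E50 and 0 for E40 to E60. For SOX5 from E40 to E50 the SE was 0.193 in that fit and 0.609 over all 9 libraries. The depth set as covariate gave 50 genes and 0 SOX genes for E40 to E50 and 1155 genes with 3 SOX genes for E40 to E60. Limma-voom on recovered reads gave 61 genes and 1 SOX gene for E50 to E60. Of the 2 combinations chosen after seeing the data, median-ratio scaling without E60 library 1 gave 7451 genes and 3 SOX genes for E50 to E60 and 948 with 4 for E40 to E60, and median-ratio scaling with the depth set gave 46, 38 and 962 genes, with 0 and 4 SOX genes for E40 to E50 and E40 to E60.

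Leaving out each library in turn gave 58 to 10650, 4 to 11529 and 128 to 1181 genes, and 0 to 4, 0 to 6 and 0 to 3 SOX genes. The lowest count for E40 to E50, 58, was reached without E50 library 2 and without E50 library 3, and without E40 library 1 it was 209, while the highest of each step was reached without E60 library 1. The cause was not tested.

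Whether the library numbers pair the libraries was not settled. The correlations of deviations from the stage means lay between -0.515 and 0.109 for same-numbered libraries and between -0.378 and 0.423 for the others. With 3 libraries per stage, and E60 split by depth, these values cannot decide it. With the replicate number as a block the counts were 5104, 4 and 82 genes, with 2 SOX genes from E40 to E50 (SOX2 and SOX5) and 0 from E40 to E60, and SOX21 from E50 to E60 had an adjusted p of 0.215.

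Directions turned only for log2 fold changes that were not called over all 9 libraries. From E40 to E50, median-ratio scaling gave -0.21 for SOX4, -0.26 for SOX11, -0.0032 for SOX17, -0.51 for SOX12 and -0.56 for SOX13. Without E60 library 1 it gave -0.20, -0.24, -0.49 and -0.54 for SOX4, SOX11, SOX12 and SOX13. The depth set gave -0.22, -0.59, -0.17 and -1.63 for these 4, and with median-ratio scaling -0.29 for SOX11 and -1.81 for SOX13. SOX13 was -0.17 with limma-voom, -0.26 without E40 library 2 and -0.0076 without E50 library 1, and without E40 library 2 SOX6 was 0.0061 and SOX12 -0.013. From E50 to E60, SOX9 was 0.74 with median-ratio scaling, 0.22 with the depth set, 0.34 with both, 0.91 with median-ratio scaling of 8 libraries, 0.078 without E50 library 1 and 0.071 without E60 library 2. SOX17 was 0.16 with median-ratio scaling and 0.24 with that of 8 libraries, where SOX12 was 0.088, and SOX6 was 0.70 with the depth set and 0.80 with both. From E40 to E60, SOX5 was -0.21 and SOX17 -0.15 both with the depth set and without E60 library 1, SOX17 was -0.16 without E40 library 1 and -0.050 without E60 library 3, and SOX15 was 0.18 with median-ratio scaling of 8 libraries and 0.19 with the depth set and median-ratio scaling. All other values for single genes kept their direction, of which 478 kept their side of the limits, 28 came to pass and 49 no longer passed. Over the leave-outs, SOX6 lay between -0.35 and 0.0061 and SOX13 between -0.26 and 0.32 from E40 to E50, and SOX5 between -0.21 and 1.14 from E40 to E60. In the shallow libraries the floor of 3 reads was worth 0.971 to 1.82 FPKM for SOX10 and up to 3.33 FPKM for SOX2, below which a level could not be told from 0.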
